A study of Homo sapiens with 4 samples.

Results

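The genes described are 51 genes of DNA replication and nucleotide supply, chosen by name from known function. They cover origin licensing, the replicative helicase and its activation, the polymerases and primase, the sliding clamp and its loader, single-strand DNA binding and Okazaki fragment processing, nucleotide supply, and chromatin assembly with maintenance methylation behind the fork. The spot tables used here carry accessions in place of gene symbols, so the members were found through the accession of each probe and its RefSeq symbol (assembly GRCh38.p14). This step renamed ORC1L, ORC2L, ORC6L and CDC45L to ORC1, ORC2, ORC6 and CDC45. All 51 were found, out of 19102 genes named on the array, and all 51 were among the 14561 genes that passed the filter on dim probes. They were read by 65 probes, each well above background on all 4 arrays.

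PC3 is an established line of prostate cancer cells grown from a bone metastasis. Lentivirus was used to bring in an shRNA against ALKBH3, an AlkB-type enzyme that removes methyl groups from bases of single-stranded DNA and RNA, or an shRNA against GFP as control. Infected cells of both kinds were selected with puromycin, and RNA was taken at 48 h or 96 h of selection. Each of the 4 combinations was measured on 1 single-colour Agilent array, so that the groups were control shRNA at 48 h, control shRNA at 96 h, ALKBH3 shRNA at 48 h and ALKBH3 shRNA at 96 h. All of them share the parental line, the viral infection and the drug. The labels do not state which ALKBH3 shRNA was used, nor whether the time points came from separate infections, so p-values measure only the spread between these arrays, which may be technical. A slide held the control and the ALKBH3 shRNA array of 1 time point. A change between time points and a difference between slides therefore cannot be told apart, whereas the shRNA difference at a time point lay within a slide. The main test of the shRNAs pooled both slides without this pairing. Only the alternative with time point as a block took account of it.

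The question put by the study is whether loss of ALKBH3 alters gene expression. At each time point the design gives only values of the replication genes, without a test, because each shRNA had 1 array there. Signals are given as log2 intensity minus the 75th percentile of the array, so that a difference of 1 is 2-fold, and signals of different genes are not compared because they come from different probes. The 75th percentile lay between 2134 and 2385 intensity units on the 4 arrays, between 67.0% and 70.9% of probes were well above background, and 0 spots were saturated. The number of arrays limits the precision. At 48 h the signal of ALKBH3 itself was -0.73 in control cells and -2.48 in knockdown cells, and at 96 h it was -0.89 against -2.40, a log2 fold change of -1.63 over both time points. The keratins KRT8 and KRT18, EPCAM and CDH1 were well above background on all 4 arrays, as in an epithelial line. KLK3, a marker of luminal prostate cells, was not well above background on any array. The shRNA difference of these markers, at 48 h and 96 h on the log2 scale, was 0.96 and 0.99 for EPCAM, 0.89 and 0.58 for CDH1, 0.099 and -0.037 for KRT8, and -0.034 and -0.11 for KRT18. Of 6 markers of blood, endothelial and stromal cells, all 6 had at least 1 probe well above background on every array, with signals from -5.93 to -0.25 for those probes.

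In each division cycle, origins are licensed in G1 when the origin recognition complex, CDC6 and CDT1 load the MCM2 to MCM7 helicase onto DNA. At the start of S phase CDC45 and the GINS complex join the helicase, MCM10 helps to activate it, and the primase and DNA polymerases alpha, delta and epsilon copy the strands with PCNA as their clamp. Many of these genes are known targets of the E2F transcription factors, which the retinoblastoma protein holds in check until late G1, and their transcripts rise and fall with the share of dividing cells. In bulk RNA, more cells in S phase and more transcript per cell cannot be told apart.

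E2F sites near the start site are the best known control element of this gene set, so promoter sequence is shown here for the members whose values bear most on the results. RefSeq promoter windows of 300 bases, from 250 before to 50 after a gene's start, were at hand for 43 of the 51 members. An E2F site was searched for as TTTCCCGC, TTTCGCGC, TTTGCCGC or TTTGGCGC and a CCAAT box as CCAAT, on both strands, with overlapping matches counted separately. At least 1 window held E2F letters in 22 of 43 members (51.2%), against 735 of 11610 tested genes that had a window (6.33%) and 1090 of 27305 genes in the whole table (3.99%). CCAAT letters were in a window of 26 of 43 members (60.5%) and of 42.8% of the tested genes. The 30 E2F matches lay at a median of 37.0 bases before the start, and 18 of them in the last 100 bases before it. By window, E2F letters were in 23 of 58 windows of the members (39.7%) and in 4.68% of those of the tested genes. A match is a run of letters and not evidence of binding.

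The stretches printed run from 160 bases before to 24 bases after the start on the gene's own strand (GRCh38.p14), in lower case, with E2F and CCAAT letters in capitals. MCM10, GINS2 and UHRF1 are shown because they passed the 2-fold cutoff between time points, MCM2 and MCM6 because overlapping E2F matches face each other there, and RFC1 and POLD2 because their signals moved little.
MCM10, chr10:13161398-13161581, plus strand: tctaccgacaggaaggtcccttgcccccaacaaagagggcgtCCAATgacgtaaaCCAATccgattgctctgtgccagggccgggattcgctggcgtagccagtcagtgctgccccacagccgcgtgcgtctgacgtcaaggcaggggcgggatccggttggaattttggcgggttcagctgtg
GINS2, chr16:85688931-85689114, minus strand: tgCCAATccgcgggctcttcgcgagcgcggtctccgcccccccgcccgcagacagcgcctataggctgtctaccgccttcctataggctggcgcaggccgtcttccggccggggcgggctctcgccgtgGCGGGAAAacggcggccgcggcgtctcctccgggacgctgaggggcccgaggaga
UHRF1, chr19:4909341-4909524, plus strand: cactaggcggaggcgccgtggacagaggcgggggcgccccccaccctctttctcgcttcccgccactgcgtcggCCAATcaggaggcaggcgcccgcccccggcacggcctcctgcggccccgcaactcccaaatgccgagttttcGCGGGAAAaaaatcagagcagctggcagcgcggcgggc
MCM2, chr3:127598251-127598434, plus strand: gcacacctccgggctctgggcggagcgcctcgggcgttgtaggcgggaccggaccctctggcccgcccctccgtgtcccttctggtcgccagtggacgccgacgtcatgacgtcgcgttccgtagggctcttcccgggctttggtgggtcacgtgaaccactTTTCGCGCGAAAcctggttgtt
MCM6, chr2:135876420-135876603, minus strand: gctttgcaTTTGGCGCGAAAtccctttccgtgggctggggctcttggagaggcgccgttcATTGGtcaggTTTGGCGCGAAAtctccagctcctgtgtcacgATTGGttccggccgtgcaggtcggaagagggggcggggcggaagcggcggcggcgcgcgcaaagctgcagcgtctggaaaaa
RFC1, chr4:39366339-39366522, minus strand: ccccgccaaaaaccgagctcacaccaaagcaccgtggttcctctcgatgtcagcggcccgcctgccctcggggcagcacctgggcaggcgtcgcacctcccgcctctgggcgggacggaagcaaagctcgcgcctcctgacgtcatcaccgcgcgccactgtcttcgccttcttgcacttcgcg
POLD2, chr7:44123525-44123708, minus strand: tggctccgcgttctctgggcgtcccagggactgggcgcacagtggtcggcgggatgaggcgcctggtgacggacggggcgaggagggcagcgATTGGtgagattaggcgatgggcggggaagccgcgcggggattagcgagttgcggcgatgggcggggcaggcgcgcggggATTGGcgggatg

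MCM6 held the most E2F matches of any member, at 4, as a pair of facing pairs, and MCM2 held 1 such pair just past its start. GINS2 and UHRF1 each held a GCGGGAAA upstream of the start printed. UHRF1 also had windows at other starts, of which the first in genome order was printed. Another of its windows held TTTCGCGC, and a further one held none of the letters searched for. Of the letters searched for, the MCM10 window held CCAAT alone. E2F sites spelled in other ways were not searched for, so a member without these letters may still hold such a site. RFC1 and POLD2 held no E2F letters in their windows. Nor did ORC2, with a log2 change of 0.11 between time points, whereas LIG1, with 0.20, held TTTCCCGC. The median log2 change from 48 h to 96 h was 0.57 in the 22 members with E2F letters and 0.54 in the 21 members without them.

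The replication genes as a set differed little between the shRNAs and were almost all higher at 96 h than at 48 h in both. Among members, the absolute log2 difference between the shRNAs had a median of 0.11 at either time point. Between the control arrays of the 2 time points it was 0.57 and between the ALKBH3 shRNA arrays 0.53. For all genes tested the same quantities were 0.15, 0.14, 0.18 and 0.19. The members therefore stood closer together than the average gene across the shRNAs and farther apart across the time points. All probes of the members were well above background on every array, which was not so for all genes tested. The part of signal level in these differences was not tested.

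**Figure D1:**
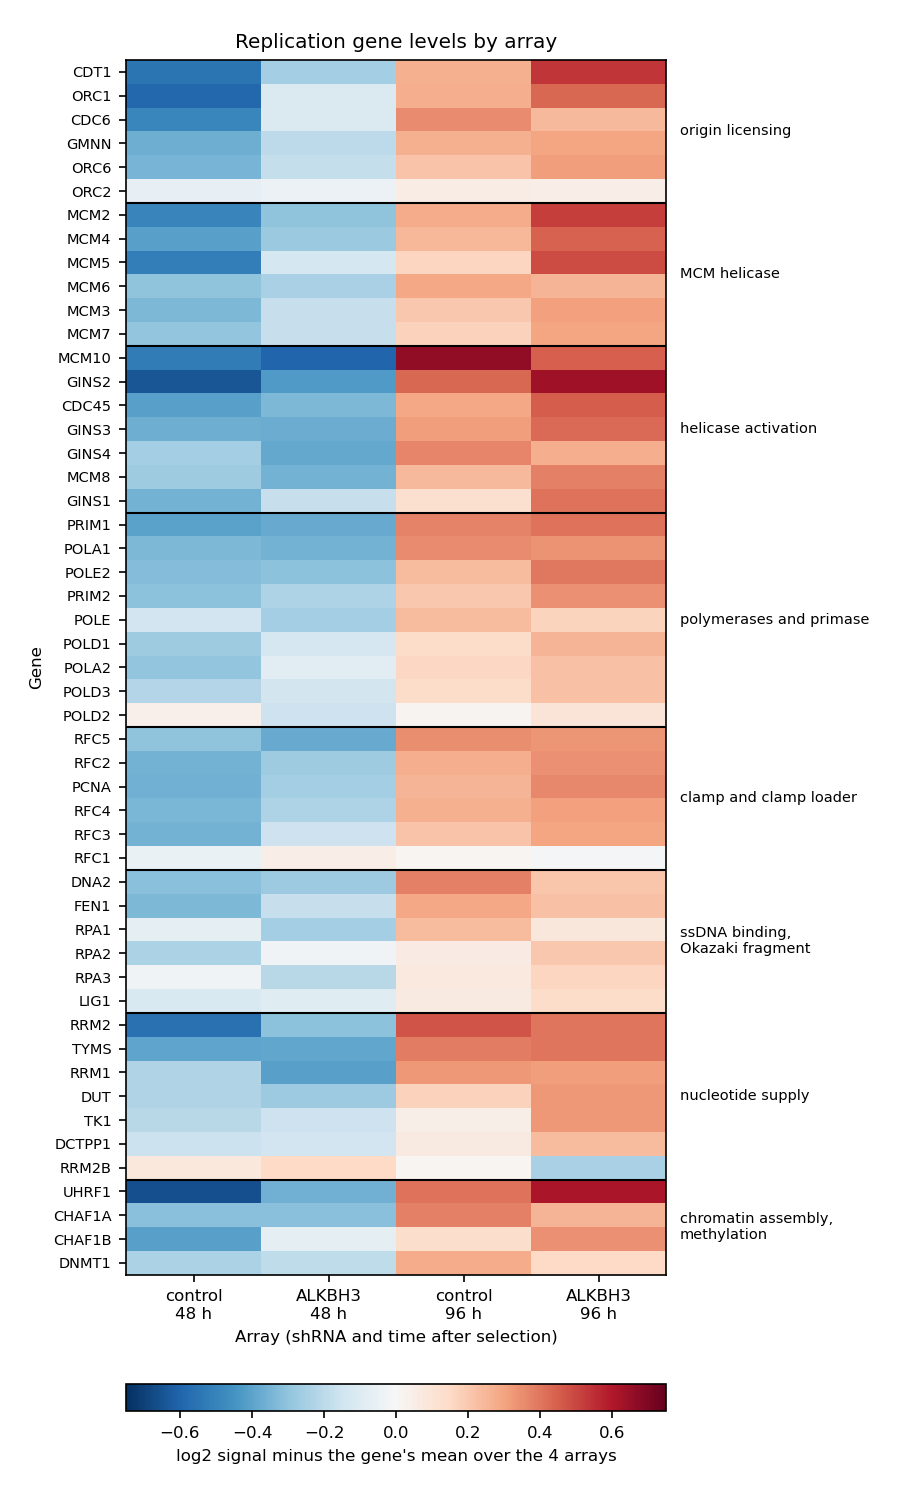
Heat map of the 51 replication genes (rows, grouped by role) on the 4 arrays (columns: shRNA and time of selection); colour is the log2 signal minus the gene's mean over the 4 arrays. Both 96 h columns are higher than both 48 h columns for 48 of the 51 genes, and RFC1, POLD2 and RRM2B are the exceptions.

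After ALKBH3 knockdown, 0 of 51 members were higher and 0 were lower at the study's cutoffs (2-fold, with an unadjusted p below 0.05), where 1.04% and 0.24% of all genes were called. By limma 0 members had an unadjusted p below 0.05 in either direction, against 4.70% of all genes higher and 3.58% lower. The methods' Student test also gave 0. In both tests the change between time points counted as error, and it was larger for the members than for all genes. These counts of 0 therefore cannot be read as a smaller effect in the members than in all genes. No member reached a 1.5-fold difference, which 6.10% of all genes did in either direction. The log2 fold change ranged from -0.16 for RPA1 to 0.36 for MCM5, with a median of 0.077 beside -0.0025 for all genes. It was above 0 in 38 of 51 members, against 49.5% of all genes. At both time points 29 members (56.9%) were higher with ALKBH3 shRNA and 7 were lower, against 34.5% and 35.2% of all genes. The median was 0.081 at 48 h and 0.08 at 96 h. In 0 of 51 members were both ALKBH3 shRNA arrays above both control arrays, against 17.4% of all genes. That count follows from the time points, since the control array at 96 h lay above the ALKBH3 shRNA array at 48 h in at least 48 members.

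With time point as a replicate block, which removes the change between time points from the error, 8 members (15.7%) were higher with ALKBH3 shRNA at an unadjusted p below 0.05 and 0 were lower, where 13.4% of all genes were higher and 11.6% lower. The share of higher members was thus near that of all genes. The 8 were ORC1, CDT1, MCM2, MCM5, GINS1, GINS2, CHAF1B and UHRF1, named here after their values were seen. Under this block 0 members passed the threshold of 0.05 after Benjamini-Hochberg adjustment, where 3.39% of all genes were called higher and 1.74% lower. The lowest adjusted p among members was 0.0802, for MCM5. Its signal in control and knockdown cells was 0.82 and 1.21 at 48 h, and 1.5 and 1.83 at 96 h. The ALKBH3 shRNA array was thus the higher one at each time point, by 0.39 and 0.33. Over the 4 arrays the log2 fold change of MCM5 was 0.36, with a 95% confidence interval of -0.50 to 1.22 in the fit without the block. A second MCM5 probe gave 0.31 at 48 h and -0.025 at 96 h, so the direction at 96 h was not shared by both probes.

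The 95% interval of a member without the block was wide, because the change between time points entered its error. For MCM10 it ran from -1.56 to 1.27 around -0.14, so these arrays could not exclude a 2-fold difference of that gene between the shRNAs in such a fit. With the time points as a block the standard error of MCM10 was 0.086.

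**Figure D2:**
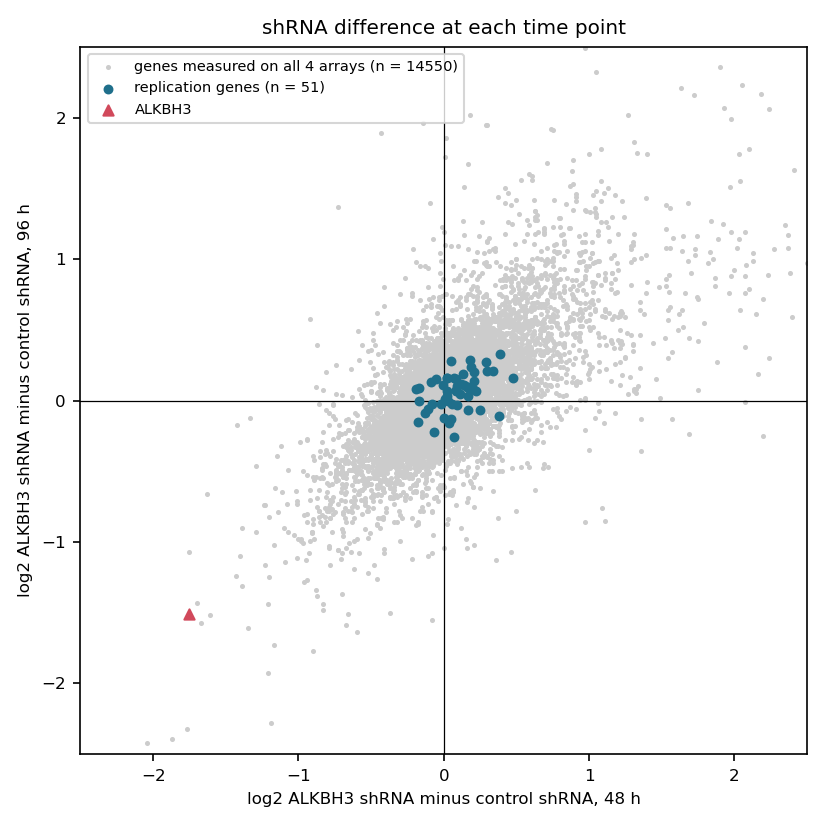
Log2 difference of ALKBH3 shRNA minus control shRNA at 48 h (horizontal axis) and at 96 h (vertical axis), with 1 point for each of 14550 genes measured on all 4 arrays in grey, the 51 replication genes in blue and ALKBH3 as a triangle; 25 genes lie outside the axes. The replication genes cluster near 0 at both time points, with no member past a log2 difference of 0.5 in either direction.

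Between 48 h and 96 h, 50 of 51 members had a positive log2 change, as did 48.1% of all genes, and RRM2B was the only one below 0. The median log2 fold change was 0.56, beside -0.011 for all genes, with 0.57 in control cells and 0.53 in knockdown cells. By limma with 2 arrays against 2, 44 members (86.3%) were higher at an unadjusted p below 0.05 and 0 were lower, against 9.08% of all genes higher and 9.27% lower. At the cutoffs of 2-fold and p below 0.05, 3 members were higher and 0 lower, where 0.124% and 0.673% of all genes were called. The 3 were MCM10, GINS2 and UHRF1. With normexp background correction, or with the values normalized by the authors, GINS2 alone passed these cutoffs, since MCM10 was then at 0.77 and 0.93 and UHRF1 at 0.95 and 0.97 on the log2 scale. Below, a gene is said to have risen where its unadjusted p was below 0.05. A change of at least 1.5-fold upward was seen in 24 members and in 2.97% of all genes. Both 96 h arrays lay above both 48 h arrays in 48 members (94.1%) and in 26.0% of all genes. Of all genes, 3.42% had a log2 change as high as the median of the members.

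After Benjamini-Hochberg adjustment 0 members passed 0.05 in the limma fit without a block, where the lowest adjusted p of a member was 0.131. The methods' Student test placed 35 members at an unadjusted p below 0.05 and 0 past the adjusted p. With shRNA as a replicate block, 38 members (74.5%) passed the adjusted p, all of them higher at 96 h, against 6.04% of all genes higher and 7.60% lower. The shRNAs serve as the repeats of each time point in this comparison, and the slide changes with the time point, so the part of the slide was not tested.

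**Figure D3:**
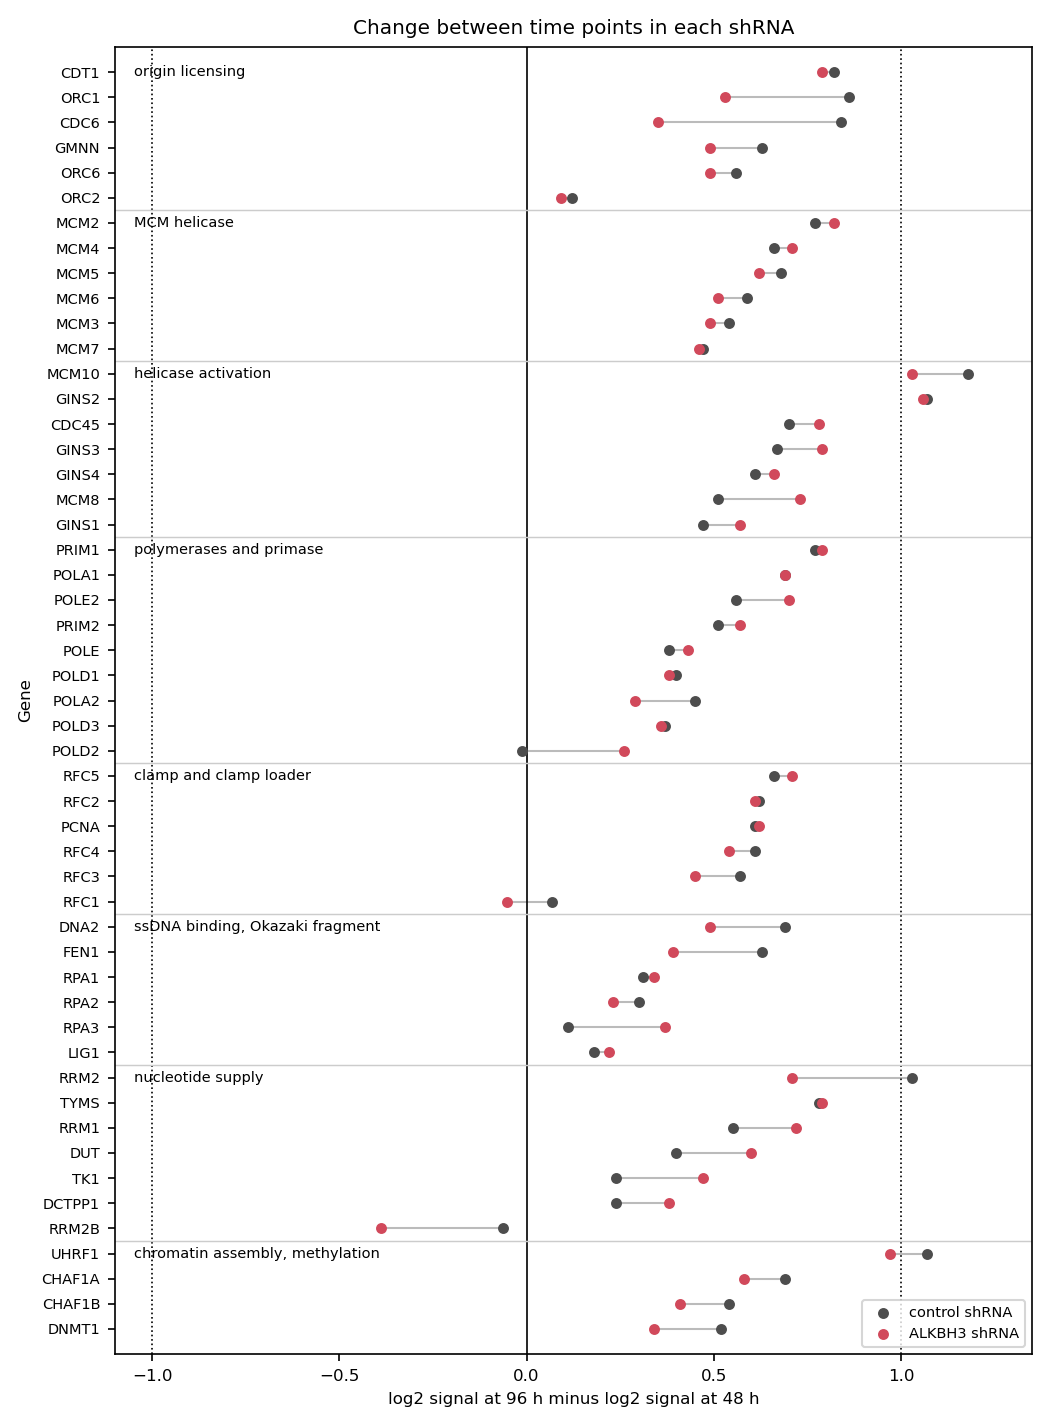
Log2 signal at 96 h minus that at 48 h (horizontal axis) for the 51 replication genes (vertical axis, grouped by role), with control shRNA in grey and ALKBH3 shRNA in red; dotted lines mark a 2-fold change. Nearly every pair of points lies to the right of 0 and the points of a pair lie close together, with RFC1 and POLD2 near 0 and RRM2B to the left.

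Origin licensing genes had a median log2 change of 0.58 between time points, and 5 of 6 had an unadjusted p below 0.05. For this and each class below, the share of all genes higher at that p was 9.08%. With the shRNA block, 6.04% of all genes passed the adjusted p as higher. CDT1, the factor that brings the MCM helicase to origins, had a signal in control and knockdown cells of 0.50 and 0.79 at 48 h and of 1.31 and 1.58 at 96 h. Both 96 h arrays were above both 48 h arrays, and the ALKBH3 shRNA array was the higher one at each time. Its log2 change with time was 0.80 (standard error 0.16, limma adjusted p = 0.154, and 0.0195 with the shRNA block). ORC1, the subunit of the origin recognition complex that is made anew in each cycle, went from -3.19 and -2.71 at 48 h to -2.33 and -2.17 at 96 h. The rise of ORC1 was 0.86 with control and 0.53 with ALKBH3 shRNA. ORC2, a core subunit that cells keep through the cycle, went from -0.96 and -0.94 to -0.84 and -0.85, a log2 change of 0.11 that missed the test (unadjusted p = 0.287 by limma). CDC6, the loading ATPase, was read by a dim probe with signals of -5.48 and -5.10 at 48 h and -4.64 and -4.75 at 96 h. Geminin (GMNN), which binds CDT1 and blocks relicensing, had a log2 change of 0.56 and ORC6 of 0.53.

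The 6 subunits of the MCM helicase all had an unadjusted p below 0.05 for time, all 6 passed the adjusted p with the shRNA block, and their log2 changes lay between 0.47 and 0.80. MCM2 had the largest, from 1.17 and 1.36 in control and knockdown cells at 48 h to 1.94 and 2.18 at 96 h. The groups did not overlap. Its log2 change was 0.80 (standard error 0.14, limma adjusted p = 0.134, and 0.0195 with the block). MCM5 rose by 0.65 and the smallest change was that of MCM7, at 0.47. The ALKBH3 shRNA array was the higher of the pair for all 6 subunits at 48 h and for 5 of 6 at 96 h, with a median difference of 0.14 at 48 h and 0.15 at 96 h. Of all 14561 genes tested, 6860 were higher with ALKBH3 shRNA at 48 h and 7589 at 96 h. The second MCM5 probe was lower at 96 h, by -0.025.

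Genes of helicase activation changed the most of the role classes, with a median of 0.73, and all 7 passed the adjusted p with the shRNA block. MCM10, which helps to switch the loaded helicase on, went from -3.29 and -3.36 at 48 h to -2.10 and -2.32 at 96 h. The change was 2.16-fold or 1.11 on the log2 scale (standard error 0.12, limma adjusted p = 0.131, and 0.0195 with the block), and lay below 2-fold under the alternatives given above. MCM10 was lower with ALKBH3 shRNA at both time points, by 0.068 and 0.22, which did not pass the test. GINS2, a subunit of the 4-part GINS complex, went from -0.064 and 0.15 to 1.01 and 1.21. That change was 2.09-fold, or 1.06 on the log2 scale (standard error 0.13), and was 1.07 with control and 1.06 with ALKBH3 shRNA. The other GINS genes rose less, with log2 changes of 0.52 for GINS1, 0.73 for GINS3 and 0.64 for GINS4. CDC45, the partner of GINS on the moving helicase, rose by 0.74 and MCM8, a relative of the replicative helicase that acts in recombination, by 0.62. GINS1 had the largest shRNA difference of the class, with signals of 1.92 and 2.10 at 48 h and 2.39 and 2.68 at 96 h, a log2 fold change of 0.24.

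Polymerases and primase had a median log2 change of 0.40, and 8 of 9 had an unadjusted p below 0.05. PRIM1, the catalytic subunit of primase, rose the most, from -0.45 and -0.43 at 48 h to 0.32 and 0.36 at 96 h. The shRNAs were nearly equal at each time, and the log2 change with time was 0.78 (standard error 0.087). POLA1, the catalytic subunit of polymerase alpha, rose by 0.69 and its partner POLA2 by 0.37. For the leading-strand polymerase epsilon, POLE2 rose by 0.63 and the catalytic subunit POLE by 0.40, with 0.29 from the second POLE probe. For polymerase delta, POLD1 rose by 0.39 and POLD3 by 0.36. The delta subunit POLD2 stood apart, with 0.24 and 0.047 at 48 h and 0.22 and 0.30 at 96 h, a change of -0.013 with control and 0.26 with ALKBH3 shRNA. The groups overlapped for POLD2, and neither comparison passed its test.

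The clamp PCNA, a ring that tethers polymerases to DNA and a common proliferation marker, had a signal in control and knockdown cells of 2.45 and 2.55 at 48 h and of 3.06 and 3.17 at 96 h. It was higher at 96 h on both arrays, by 0.61 on the log2 scale (standard error 0.099, limma adjusted p = 0.131, and 0.0228 with the block), and by 0.65 with its second probe. The shRNA difference of PCNA was 0.094 at 48 h and 0.10 at 96 h. In the clamp loader the small subunits rose together, by 0.62 for RFC2, 0.51 for RFC3, 0.58 for RFC4 and 0.68 for RFC5. The large subunit RFC1 had signals of 0.60 and 0.70 at 48 h and 0.67 and 0.64 at 96 h, which overlap, and a log2 change of 0.0073 (standard error 0.093). RFC2 to RFC5 also serve in the loaders of other clamps, whereas RFC1 is the subunit particular to the PCNA loader.

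Single-strand binding and Okazaki fragment genes had the smallest median change of the classes, 0.29, and 3 of 6 had an unadjusted p below 0.05. The subunits of replication protein A, which coats single-stranded DNA in replication and repair, had log2 changes of 0.33 for RPA1, 0.26 for RPA2 and 0.24 for RPA3. The second RPA1 probe gave 0.041. RPA2 had signals of 2.39 and 2.60 at 48 h and 2.69 and 2.83 at 96 h, so the groups did not overlap although the test was missed (unadjusted p = 0.0908 by limma). DNA2, a nuclease that trims long flaps, rose from -2.55 and -2.51 to -1.86 and -2.03, a log2 change of 0.59. The flap nuclease FEN1 rose by 0.51, and DNA ligase 1 (LIG1) had a log2 change of 0.20 that missed the test.

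Nucleotide supply was the one class with members on both sides of 0. RRM2, the regulatory subunit of ribonucleotide reductase made in S phase, went from 0.47 and 0.72 in control and knockdown cells at 48 h to 1.5 and 1.43 at 96 h. Its log2 change was 0.87 (standard error 0.12, limma adjusted p = 0.131, and 0.0221 with the block), as 1.03 with control and 0.71 with ALKBH3 shRNA. RRM2B, the p53-inducible alternative to RRM2 that serves repair and mitochondrial DNA in resting cells, went from -0.81 and -0.74 to -0.87 and -1.13. Both 96 h arrays were below both 48 h arrays, by a log2 change of -0.23 that missed the test (unadjusted p = 0.142 by limma), and a second RRM2B probe gave 0.038. Without the ALKBH3 shRNA array at 96 h the change was -0.098, and without the control array at 96 h it was -0.36. The catalytic subunit RRM1 rose by 0.63. Thymidylate synthase (TYMS), which makes the thymine nucleotide anew, rose by 0.79 with signals of 4.26 and 4.27 at 48 h and 5.04 and 5.06 at 96 h. Thymidine kinase 1 (TK1), which salvages thymidine, went from 5.78 and 5.83 to 6.03 and 6.31, a change of 0.36. DUT and DCTPP1, which break down dUTP and modified dCTP, rose by 0.50 and 0.31.

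Chromatin assembly and maintenance methylation genes had a median change of 0.55, and all 4 passed the adjusted p with the shRNA block. UHRF1, which guides DNMT1 to newly copied DNA, went from 0.48 and 0.78 at 48 h to 1.55 and 1.75 at 96 h. That is 2.02-fold or 1.02 on the log2 scale (standard error 0.15, limma adjusted p = 0.131, and 0.0195 with the block), and its second probe gave 0.89. DNMT1, the maintenance methyltransferase, rose by 0.43. The subunits of chromatin assembly factor 1, which sets histones behind the fork, rose by 0.63 for CHAF1A and 0.47 for CHAF1B. CHAF1B was higher with ALKBH3 shRNA at each time, with 1.15 and 1.49 at 48 h and 1.69 and 1.90 at 96 h, a log2 fold change of 0.28 (adjusted p = 0.141 by limma with the time block).

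Of the 13 members read by more than 1 probe, 12 had changes of 1 direction between time points over all their probes, RRM2B being the exception, and 11 had shRNA differences of 1 direction, POLE and RPA1 being the exceptions.

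Other genes of the same processes were taken from separate lists. Among 32 further replication factors the median log2 change between time points was 0.39. At an unadjusted p below 0.05 by limma, 18 were higher and 0 lower, against 9.08% and 9.27% of all genes. DSCC1, of an alternative clamp loader, had a change of 0.96, and TOP2A, the topoisomerase that untangles copied DNA, one of 0.81. The origin recognition subunits ORC3, ORC4 and ORC5 had 0.099, 0.033 and 0.059 and, like ORC2, did not pass the test. Among 32 other nucleotide synthesis genes the median was 0.22, with 14 higher and 1 lower. The lower gene was TK2, the mitochondrial thymidine kinase, at -0.51.

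The 26 genes of the E2F, retinoblastoma and G1/S list had a median of 0.11. At an unadjusted p below 0.05 by limma, 10 were higher and 0 lower, against 9.08% and 9.27% of all genes. E2F2, an activating E2F factor, was the one gene of these lists above the 2-fold cutoff, from -0.64 and -0.31 at 48 h to 0.47 and 0.75 at 96 h, a log2 change of 1.08. E2F1 rose by 0.69, E2F8 by 0.88, cyclin E2 (CCNE2) by 0.83 and cyclin A2 (CCNA2) by 0.96. Cyclin D1 (CCND1), at -0.023, and the inhibitor CDKN1A, at -0.17, did not pass the test. CDKN1A was read by a dim probe, with signals from -6.43 to -6.06, that was well above background on only 3 arrays. The 20 mitosis genes, which act after replication, were all higher at an unadjusted p below 0.05, with a median of 0.66 and a range from 0.42 to 0.84. In the comparison of shRNAs 0 genes of these 4 lists passed the 2-fold cutoff in either direction. Under the time block, 1 gene of these lists passed the adjusted p, where 3.39% of all genes were called higher and 1.74% lower. The gene was ASF1B, a histone chaperone, named after its values were seen. It was lower with ALKBH3 shRNA by -0.63 at 48 h and -0.60 at 96 h on the log2 scale (adjusted p = 0.0334 by limma with the block).

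**Figure D4:**
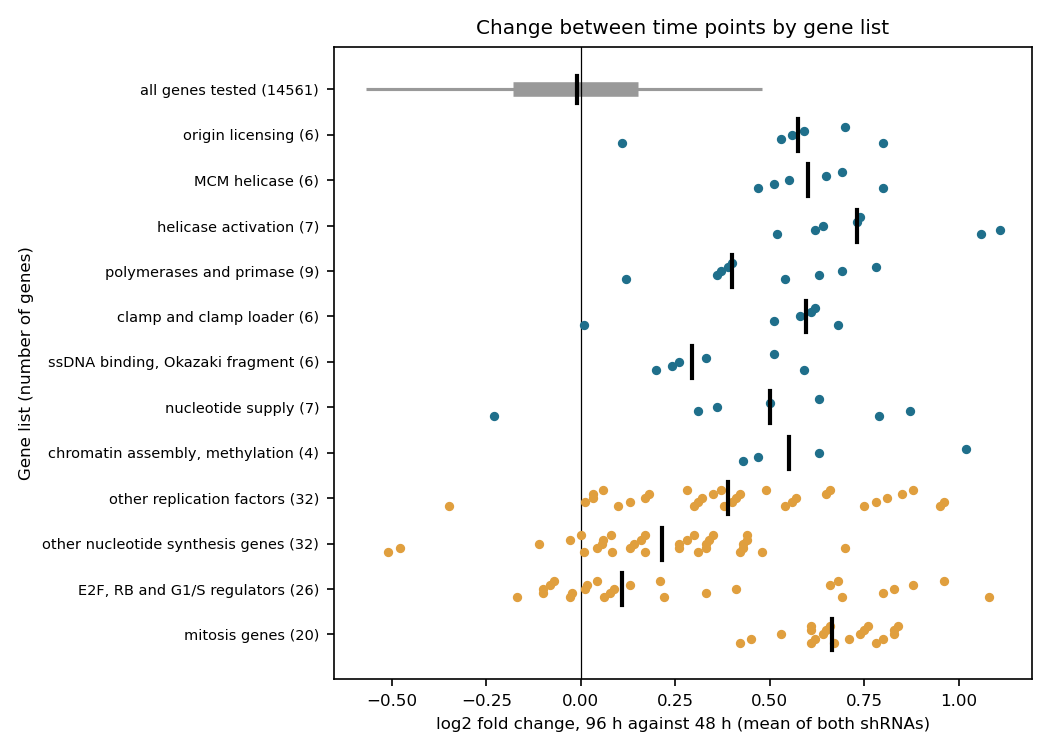
Log2 fold change of 96 h against 48 h (horizontal axis) by gene list (vertical axis, number of genes in brackets); each point is a gene, replication genes in blue and other lists in orange, and black ticks are medians. For all genes tested the thick bar spans the quartiles, -0.18 to 0.15, and the thin line the 5th to 95th percentiles, -0.57 to 0.48; the medians of the replication classes lie between 0.29 and 0.73.

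Among the 4 epithelial markers, the log2 change between time points was 0.085 for KRT18, -0.21 for KRT8 and -0.46 for EPCAM, and these had no unadjusted p below 0.05 by limma, although EPCAM passed the adjusted p with the shRNA block (0.0342). CDH1, which encodes E-cadherin, was lower at 96 h by a log2 change of -1.33, with signals of -0.11 and 0.79 at 48 h and -1.28 and -0.70 at 96 h. Its change passed the 2-fold cutoff. The 6 markers of other cell types had a median log2 change of -0.23 with time and of 0.17 with ALKBH3 shRNA, and their part in the results was not tested.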

How the data were processed

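RNA of 4 samples was measured on 4 Agilent 4x44K v2 arrays. The authors deposited spot intensities made by Agilent Feature Extraction (version 10.7.3.1 per the file headers), background-subtracted array by array and not normalized between them. A deposited table of log2 values, which the authors had normalized between arrays, served as an alternative. Of 43118 non-control spots per array, between 180 and 379 marked as poor were removed. Log2 intensity was centred on the 75th percentile of each array and spots of 1 probe were averaged. Probes well above background in at least 0.5 of their spots on both arrays of 1 shRNA were kept. RefSeq symbols were matched for 24910 of 34127 probes, and the tested probe with the highest mean signal stood for each of 14561 genes.

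R 4.3.3, limma 3.58.1 (lmFit and eBayes), data.table (version 1.17.8), Python 3.11.15, pandas 2.3.3 and matplotlib 3.10.9 were used. Arrays of the ALKBH3 and control shRNAs, and of 96 h and 48 h, were compared 2 against 2, and p-values were adjusted over all genes by the Benjamini-Hochberg method. As alternatives the time point, or the shRNA, was a replicate block; the pairing comes from the labels, and arrays of 1 time point share a slide. The other alternatives concerned background correction (normexp, offset 50), normalization, the filter, the probe rule, the methods' Student test, the fold cutoff and leaving out each array. The limma fit without a block was tried on simulated data in which only the compared groups differed. A change with time was thus absent when the shRNAs were compared. Filtering, averaging of spots, symbol matching and the promoter search were not part of that trial.

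The members and lists were chosen with earlier results of these data known. Members past the cutoffs, the member of each class with the largest change in each comparison, PCNA, RRM2 and RRM2B, ALKBH3, and genes of other lists past the cutoffs were named by rule; the other genes were named after their values were seen. ChIP-seq data are not analysed here.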

Additional observations from a re-analysis of the deposited data

Results flagged for a closer look

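For 15 members the difference between ALKBH3 and control shRNA had opposite signs at 48 h and 96 h, each time on 1 array per shRNA. Of all 14561 genes tested, 5024 were higher and 5129 lower with ALKBH3 shRNA at both time points. The remaining genes made up a share near that of these 15 among the 51 members. The difference at 96 h minus that at 48 h was -0.49 for CDC6, -0.33 for RRM2B, -0.32 for RRM2, -0.24 for FEN1, -0.20 for DNA2, -0.18 for DNMT1, -0.12 for CHAF1A, -0.12 for RFC1, -0.084 for MCM6 and -0.029 for ORC2. It was positive for POLD2 (0.27), RPA3 (0.26), MCM8 (0.22), DUT (0.20) and GINS3 (0.12). The change with time also had opposite signs in the shRNAs for POLD2, by 0.27 (ALKBH3 shRNA minus control), and for RFC1, by -0.12. In both shRNAs 48 of the 51 members were higher at 96 h and 1 was lower, against 5268 and 5814 of all 14561 genes. With 1 array per shRNA and time point, the difference was not tested for any of the members named here.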

How the results depend on the processing

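Over all alternatives the median log2 change of the members between time points stayed positive (0.47 to 0.61), and 49 or 50 members were higher at 96 h. At the 2-fold cutoffs 1 member (GINS2) was higher with normexp or with the values normalized by the authors and 24 at 1.5-fold; leaving out each array gave between 1 and 3 members and a median between 0.47 and 0.61. The count was 1 without the control array at 48 h and 1 without the ALKBH3 shRNA array at 96 h. The log2 change with time moved by over 1.5 times for RFC3 (0.51, against 0.25 with normexp and 0.30 with the values of the authors), RRM2B (-0.23, against -0.12 and -0.096) and TK1 (0.36, against 0.55 and 0.57). Leaving out each array gave between -0.36 and -0.098 for RRM2B, 0.22 and 0.50 for TK1, 0.46 and 0.94 for ORC1, 0.30 and 0.64 for CHAF1B, and 0.16 and 0.37 for RPA2. The lowest of these for ORC1, CHAF1B and RPA2 came without the control array at 48 h, and that for TK1 without the ALKBH3 shRNA array at 96 h. With shRNA as a replicate block 38 members passed the adjusted p in place of 0. In the shRNA comparison 0 members passed the cutoffs under any alternative, and the time block gave 8 (15.7%) at an unadjusted p below 0.05, against 13.4% of all genes in that direction.

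Leaving out an array makes the time points unequal between the shRNAs, so that part of the change with time enters the shRNA difference by construction. The median of the members then ranged from -0.20 to 0.37. The log2 fold change for the shRNA ranged from -0.11 to 0.75 for ORC1, -0.13 to 0.69 for CDT1, -0.20 to 0.62 for MCM2, 0.019 to 0.70 for MCM5, -0.74 to 0.45 for MCM10, -0.050 to 0.52 for GINS1, -0.33 to 0.74 for GINS2, -0.083 to 0.37 for POLA2, -0.37 to 0.42 for PRIM1, -0.21 to 0.41 for PCNA, -0.14 to 0.43 for RFC3, -0.41 to 0.31 for RFC5, 0.022 to 0.32 for RPA2, -0.41 to 0.28 for DNA2, -0.42 to 0.61 for RRM2, -0.29 to 0.10 for RRM2B, -0.073 to 0.40 for TK1, 0.0056 to 0.55 for CHAF1B and -0.28 to 0.79 for UHRF1.

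Over all genes tested, 151 were higher and 35 lower with ALKBH3 shRNA at the cutoffs. The counts were 61 and 22 with normexp, 88 and 32 with the values of the authors, 45 and 15 with the Student test, 276 and 56 without the filter, 418 and 188 at 1.5-fold, and between 147 and 326 and between 30 and 93 without each array. For time they were 18 and 98, against 11 and 46 with normexp, 13 and 43 with the Student test, 336 and 142 without the filter, 361 and 428 at 1.5-fold, 30 and 91 with centring on the median, 27 and 160 with the block, and between 21 and 87 and between 112 and 257 without each array.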
